A study of Mus musculus with 18 samples.

Results

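The genes described here encode 9 ligand-sensing and bile acid regulatory receptors of the liver, namely Nr1h4, Nr0b2, Nr5a2, Nr1h3, Nr1h2, Nr1i2, Nr1i3, Ahr and Thrb, out of 21938 protein-coding genes of the GENCODE annotation of the mouse genome (mm10). Each gene was taken as its body plus 50 kb on both sides, here called its window, and was set against all 6 deposited lists of called regions. The receptors were picked by name, with earlier results of these data known. Lamin B1, a protein of the nuclear lamina, and H3K9me3, a histone mark of silent chromatin, were immunoprecipitated and sequenced (ChIP-Seq) from the livers of C57BL/6 males aged 3 months (young) or 21 months (old), with 2 replicates per group. Foxa2, a winged-helix pioneer factor of the hepatocyte, was profiled in livers of wild-type (WT) and Zmpste24-deficient (KO) C57BL/6 males of 12 weeks, with 3 replicates per genotype. Zmpste24 is the protease that processes prelamin A to mature lamin A, the deletion was present in the whole animal, and the WT mice were littermates. The lamin B1 and H3K9me3 regions and the Foxa2 sites therefore come from different mice of different ages, and H3K9me2 was not analysed here.

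The replicates of each group had been merged into 1 list before deposit, and the lists hold positions without heights or counts. The depth behind a region is not in the lists, no spread between replicates can be had, and no difference between ages or genotypes could be tested. A gene outside a list is one at which no region was called. The study counts more H3K9me3 regions at each age than the H3K9me3 lists used here hold, and the reason is not known. Regions missing from these lists could touch windows given here as untouched by H3K9me3, so each such absence holds for the lists as used. The lists held 1624 young and 1519 old lamin B1 domains, covering 466 and 930 Mb, 2784 young and 2496 old H3K9me3 regions, covering 576 and 617 Mb, and 4960 WT and 8177 mutant Foxa2 sites. Counts of the receptor genes are read against the percentage of all protein-coding genes that meet the same criterion in the same list. The windows of the receptor genes are built on genes with a median length of 37.1 kb, against 17.4 kb for all protein-coding genes, and the median GC content of the windows was 44.3% in both sets.

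Nuclear receptors bind small lipophilic ligands and regulate genes through short DNA elements, often as partners of the retinoid X receptors. In the liver, bile acids activate Nr1h4 (FXR), which induces Nr0b2 (SHP), a receptor without a DNA-binding domain. Nr0b2 in turn represses Nr5a2 (LRH-1), an activator of the bile acid synthesis genes Cyp7a1 and Cyp8b1. Nr1h3 (LXRα) and Nr1h2 (LXRβ) respond to oxysterols and regulate cholesterol efflux and fatty acid synthesis. Nr1i2 (PXR) and Nr1i3 (CAR) sense drugs and other foreign compounds, and Thrb is the main thyroid hormone receptor of hepatocytes. Ahr, the aryl hydrocarbon receptor, belongs to the basic helix-loop-helix PAS family and binds DNA with Arnt.

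The receptor genes fell into 4 arrangements with respect to lamin B1. Nr0b2, Nr5a2, Nr1h3 and Nr1i3 were covered by lamin B1 domains over 100% of their windows at both ages. Nr1h4 and Nr1h2 were covered over 0% in young and 100% in old livers. Nr1i2 was covered over 100% in young and 71.6% in old livers, and Ahr and Thrb were untouched at either age. Thus 5 of 9 windows touched a young lamin B1 domain (55.6%, against 44.4% of all genes) and 7 of 9 an old one (77.8%, against 68.5%). The start site of the gene lay in a young domain for 5 receptors (36.0% of all genes) and in an old domain for 7 (62.3% of all genes).

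**Figure D1:**
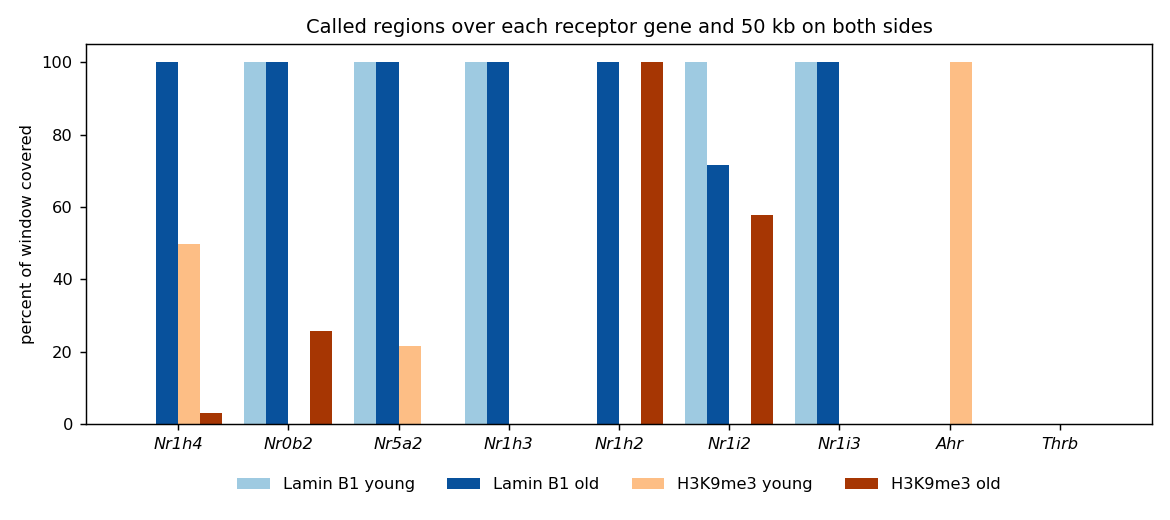
Percent of each receptor gene's window (gene body plus 50 kb on both sides, y axis) covered by called lamin B1 and H3K9me3 regions in young and old livers, with 1 bar per merged list and no error because the lists hold no replicates. Lamin B1 covers Nr1h4 and Nr1h2 in old livers alone, and H3K9me3 covers the whole Ahr window in young livers alone.

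Start sites inside an old domain and outside every young one were found for 2 of 9 receptors, Nr1h4 and Nr1h2 (22.2%, against 30.5% of all genes). The opposite arrangement was found for 0 of 9 (4.26% of all genes). Of all genes, 31.8% had their start site in a domain at both ages, as did 5 of the 9 receptors (55.6%), and 17.7% had a window wholly covered at both ages, as did 4 of the 9 (44.4%). Windows with more lamin B1 coverage in old than in young livers made up 2 of 9 (44.2% of all genes), and windows with less made up 1 of 9 (9.57%). Windows untouched at both ages made up 2 of 9 (27.5%). The median coverage of the 9 windows was 100% at both ages, and over all genes it was 0% in the young and 98.5% in the old list. The old list covers more of the genome than the young one, whereas the study's read summary gives fewer lamin B1 reads for old than for young livers. The part of these differences in the counts was not tested.

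H3K9me3 regions touched 3 receptor windows in young livers (33.3%, against 25.6% of all genes) and 4 in old livers (44.4%, against 41.6%). Nr1h4 was the receptor touched at both ages. Start sites lay in a young H3K9me3 region for 1 receptor, Ahr (12.9% of all genes), and in an old region for 2, Nr1h2 and Nr1i2 (24.4% of all genes). No receptor start site lay in an H3K9me3 region at both ages, an arrangement held by 7.07% of all genes. Coverage by H3K9me3 was higher in old livers for 3 receptors, Nr0b2, Nr1h2 and Nr1i2 (33.0% of all genes), and lower in old livers for 3, Nr1h4, Nr5a2 and Ahr (13.1% of all genes). Nr1h3, Nr1i3 and Thrb were untouched at both ages in these lists, which hold fewer H3K9me3 regions than the study counts, as were 50% of all genes. No receptor window was wholly covered by H3K9me3 at both ages (1.47% of all genes).

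Foxa2 sites were called in the windows of 5 receptors in WT livers (55.6%, against 30.5% of all genes) and of 6 in Zmpste24 mutant livers (66.7%, against 38.5%). Nr0b2, Nr5a2, Nr1i2 and Nr1i3 held sites in both genotypes (44.4%, against 19.2% of all genes). Nr1h4 and Thrb held sites in the mutant list only (19.3% of all genes), and Nr1h3 in the WT list only (11.3% of all genes). Nr1h2 and Ahr held none. The windows held 7 WT and 15 mutant sites, a ratio of 2.14 against 1.65 for the whole lists. These counts depended on the flank, at 3 WT and 10 mutant sites in the gene bodies alone and 5 and 12 with 10 kb. With 100 kb on both sides they were 10 WT and 17 mutant sites. Windows with 3 or more mutant sites were those of Nr1h4, Nr5a2, Nr1i2 and Thrb (44.4%, against 4.47% of all genes), and the same 4 receptors held more mutant than WT sites (25.0% of all genes). Long genes have wide windows, and the Thrb, Nr5a2 and Nr1h4 bodies of 378, 118 and 79.4 kb were the longest of the 9. The part of window length in these counts was not tested.

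**Figure D2:**
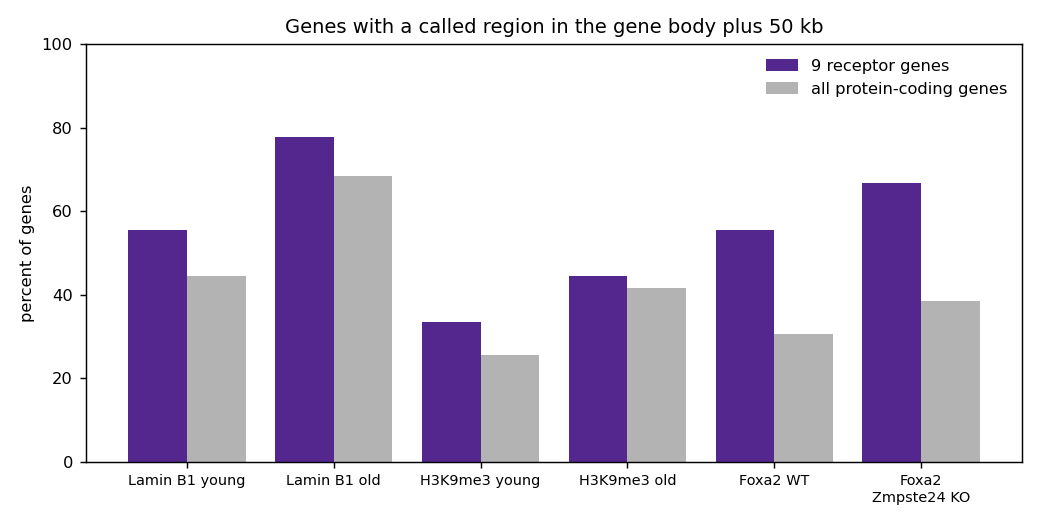
Percent of the 9 receptor genes and of all 21938 protein-coding genes (y axis) whose gene body plus 50 kb touches a called region in each list. The receptor share is above that of all genes in each of the 6 lists, by 2.85 points for old H3K9me3 to 28.1 points for mutant Foxa2, and no test was made. The receptor genes are longer (median 37.1 kb, against 17.4 kb), so their windows are wider. By start site, the receptor share is above that of all genes for lamin B1 at both ages. For H3K9me3 it is below, at 11.1% against 12.9% in young and 22.2% against 24.4% in old livers.

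Of the 7 WT sites, 4 lay in introns, 2 outside protein-coding genes and 1 over an exon. Of the 15 mutant sites, 9 lay in introns, 3 outside protein-coding genes and 3 over exons. The middle of 1 WT site and of 2 mutant sites lay within 1 kb of the receptor's own start site, in Nr0b2 for WT and in Nr1h4 and Nr5a2 for the mutant. Sites overlapped between genotypes in 3 cases, which were 42.9% of the WT sites and 20% of the mutant sites near the receptors, against 27.2% and 16.7% over the whole lists. All 7 WT sites lay in regions that carried lamin B1 domains in both young and old livers (35.5% and 63.5% of all WT sites). The windows that held these sites were covered over 100% by young domains, so the young count is no separate result. Old domains also covered these windows over 100%, save that of Nr1i2 at 71.6%. Of the mutant sites, 8 of 15 lay in young domains (53.3%, against 28.0% of all mutant sites) and 11 of 15 in old domains (73.3%, against 49.2%). Each window with a mutant site was covered over either 0% or 100% by young domains, so this young count is no separate result either. Old domains also covered these windows over 0% or 100%, save that of Nr1i2 at 71.6%.

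Nr1h4, on the minus strand of chromosome 10 (chr10:89454234-89533585, 79.4 kb), encodes the bile acid receptor FXR. In old livers, a lamin B1 domain of 490 kb (chr10:89370001-89860000) held the whole gene, its 3 annotated transcript starts and 6 protein-coding start sites in all. The nearest young domain began 116 kb from the gene, at chr10:89650001-89820000. H3K9me3 flanked the gene in young livers, with a region of 230 kb (chr10:89220001-89450000) that ended 4.23 kb from one end of the body and a region of 110 kb (chr10:89540001-89650000) that began 6.42 kb from the other. The body of 79.4 kb thus sat in a gap of 90 kb between both regions. Both distances are smaller than 10 kb, the step on which the edges of all H3K9me3 regions in the lists fall. In old livers, a region of 170 kb (chr10:89240001-89410000) was called at 44.2 kb from the gene, and coverage of the window was 49.8% in young and 3.22% in old livers.

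No WT Foxa2 site was called in the Nr1h4 window, and the nearest lay 99.6 kb from the gene. Lamin B1 covered 0% of this window in young and 100% in old livers. Any site called in the window therefore lies inside the old domain and outside the young ones, which is no separate result. The mutant list held 4 such sites. One of them (chr10:89533052-89533796) spanned 1 of the 3 transcript starts and held the forkhead core TGTTTAC on the minus strand 374 bp downstream and 100 bp upstream of the start site. A second (chr10:89530465-89531607) lay in an intron 2.55 kb downstream of the start. The remaining sites, at chr10:89449661-89450823 and chr10:89404347-89404960, lay beyond the 3′ end of the gene, where the nearest start site was that of Gas2l3 at 6.28 and 39.3 kb. The stretch of the start site region given here lies in the intron and leaves out every annotated exon. It is shown because it is the mutant site at the outermost annotated start of Nr1h4, where no WT site was called. An annotated promoter of Nr1h4 within the gene (chr10:89506609-89506908) overlapped no Foxa2 site in either genotype. In this and the following sequences, all given 5′ to 3′ on the plus strand of mm10 (RefSeq GRCm38.p6), capitals mark the forkhead core TGTTTAC and its variants TGTTTGC and also TATTTAC, the nuclear receptor word AGGTCA, the Ah response core TNGCGTG and the GATA word AGATAA on either strand. A match is a string of letters and not a measured binding site.
Nr1h4 mutant start site region (chr10:89533077-89533376): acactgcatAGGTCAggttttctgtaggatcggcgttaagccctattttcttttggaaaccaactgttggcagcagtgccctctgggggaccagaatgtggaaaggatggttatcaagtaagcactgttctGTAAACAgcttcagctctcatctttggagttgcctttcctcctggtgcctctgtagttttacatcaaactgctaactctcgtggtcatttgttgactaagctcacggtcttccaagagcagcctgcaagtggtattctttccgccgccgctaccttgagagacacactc
The stretch held 1 forkhead core, read as GTAAACA on the plus strand, and 1 nuclear receptor word. The middle 300 bases of the site held no forkhead word and no nuclear receptor word.

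Nr0b2, on chromosome 4 (chr4:133553376-133556536, plus strand, 3.16 kb), encodes SHP, the repressor induced by FXR. The gene lay in lamin B1 domains at both ages. The young domain was 710 kb long with 19 protein-coding start sites (chr4:133120001-133830000), and the old domain was 5740 kb long with 115 (chr4:130730001-136470000). An H3K9me3 region of 120 kb in old livers (chr4:133580001-133700000) began 23.5 kb beyond the gene and covered 25.7% of the window, whereas the nearest young region lay 703 kb away. In WT livers, a Foxa2 site (chr4:133552501-133553275) was called with its middle 0.488 kb upstream of the Nr0b2 start site. In the mutant list no site was called there, and a different site (chr4:133570178-133570553) lay 17.0 kb downstream, 4.38 kb from the start of Gpatch3. The sequences of both are shown because each was called in 1 genotype only.
Nr0b2 WT upstream site (chr4:133552738-133553037): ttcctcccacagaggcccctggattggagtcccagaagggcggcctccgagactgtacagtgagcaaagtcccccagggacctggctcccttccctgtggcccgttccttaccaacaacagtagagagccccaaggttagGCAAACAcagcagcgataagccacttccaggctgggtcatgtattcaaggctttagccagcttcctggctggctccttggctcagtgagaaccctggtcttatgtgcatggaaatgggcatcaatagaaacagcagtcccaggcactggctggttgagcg
Nr0b2 mutant downstream site (chr4:133570216-133570515): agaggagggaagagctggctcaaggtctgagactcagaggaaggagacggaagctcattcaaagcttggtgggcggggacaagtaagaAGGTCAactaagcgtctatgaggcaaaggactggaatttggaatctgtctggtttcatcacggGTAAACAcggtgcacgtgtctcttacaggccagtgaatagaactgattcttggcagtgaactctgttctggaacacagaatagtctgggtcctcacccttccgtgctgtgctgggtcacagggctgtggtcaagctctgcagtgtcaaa
The WT stretch held the variant TGTTTGC once and no TGTTTAC. The mutant stretch held TGTTTAC once and AGGTCA once.

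Nr5a2, on the minus strand of chromosome 1 (chr1:136842571-136960448, 118 kb), encodes LRH-1, which activates bile acid synthesis genes. No other protein-coding gene was in its window. Lamin B1 covered it at both ages, within a domain of 740 kb with 2 start sites in young livers (chr1:136580001-137320000) and of 4240 kb with 69 start sites in old livers (chr1:133030001-137270000). A young H3K9me3 region of 90 kb (chr1:136750001-136840000) ended 2.57 kb from the 3′ end of the gene and covered 21.8% of the window. The nearest old region lay 400 kb away.

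The WT list held 2 sites in Nr5a2 introns, 13.4 kb (chr1:136946671-136947418) and 50.9 kb (chr1:136908640-136910498) downstream of the start. The mutant list held 3. One of these (chr1:136910066-136911817) overlapped the WT site farther into the gene, one lay 93.8 kb downstream (chr1:136866240-136866978), and one (chr1:136959268-136961349) spanned the start of the gene and 2 of its 6 transcript starts. The site at 13.4 kb was called in WT livers only and the site at the start in mutant livers only. One stretch is shown for each of these 3 arrangements, with exons left out. The shared stretch and the mutant stretch begin on a forkhead word, so finding that word in them is no result. In the middle 300 bases of the overlap and of the mutant site at the start, no forkhead word was found. The mutant site 93.8 kb downstream, which is not shown, held no forkhead word.
Nr5a2 WT intronic site (chr1:136946895-136947194): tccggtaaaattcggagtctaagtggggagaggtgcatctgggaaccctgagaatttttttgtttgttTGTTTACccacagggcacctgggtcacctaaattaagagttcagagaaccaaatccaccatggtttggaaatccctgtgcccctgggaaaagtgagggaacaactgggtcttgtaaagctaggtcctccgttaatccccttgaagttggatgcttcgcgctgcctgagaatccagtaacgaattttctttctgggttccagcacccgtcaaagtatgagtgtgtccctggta
Nr5a2 stretch shared by both genotypes (chr1:136910128-136910427): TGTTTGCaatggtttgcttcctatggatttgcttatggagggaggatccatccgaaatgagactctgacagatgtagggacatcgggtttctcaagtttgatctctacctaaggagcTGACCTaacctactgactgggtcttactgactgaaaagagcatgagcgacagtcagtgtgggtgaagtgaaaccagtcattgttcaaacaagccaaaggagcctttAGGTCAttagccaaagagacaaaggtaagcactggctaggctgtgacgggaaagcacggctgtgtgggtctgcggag
Nr5a2 mutant start site region, intronic part (chr1:136959533-136959832): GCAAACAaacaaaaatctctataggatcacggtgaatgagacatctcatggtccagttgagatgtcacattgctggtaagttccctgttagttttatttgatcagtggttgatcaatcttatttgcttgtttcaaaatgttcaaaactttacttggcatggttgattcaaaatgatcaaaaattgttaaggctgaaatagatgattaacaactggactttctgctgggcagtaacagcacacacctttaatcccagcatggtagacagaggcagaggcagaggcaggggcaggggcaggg
The WT stretch held TGTTTAC once. The shared stretch held TGTTTGC once and AGGTCA 2 times, and the mutant stretch held TGTTTGC once.

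**Figure D3:**
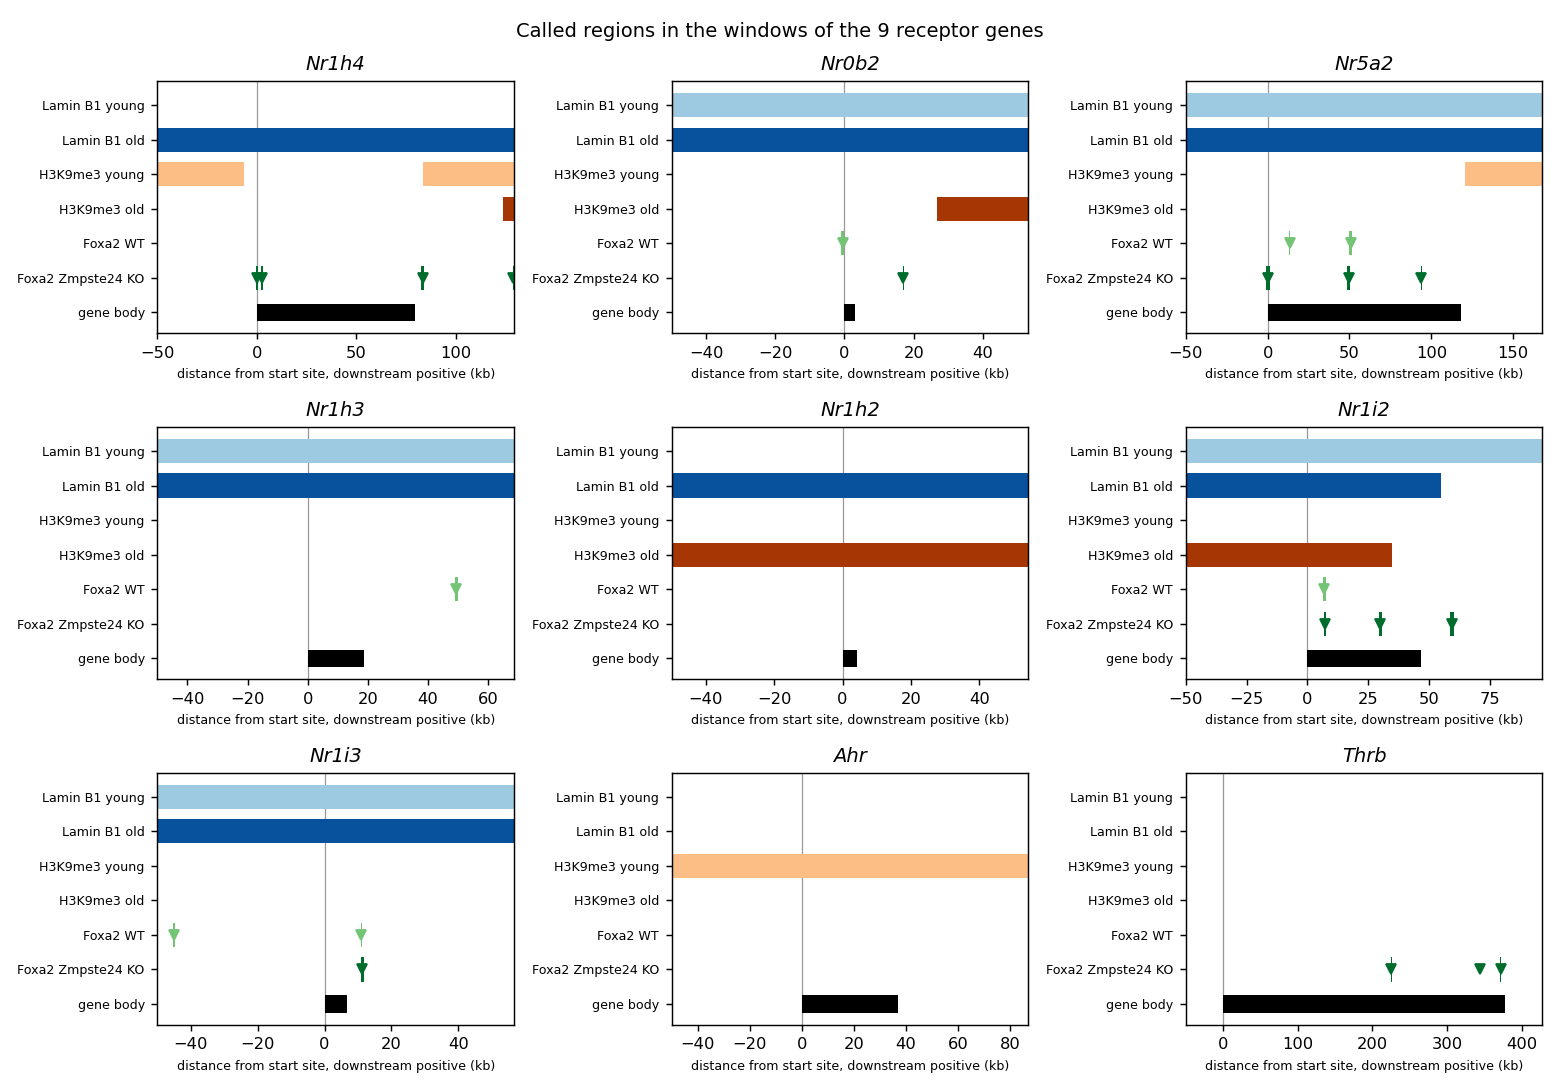
Called regions across the window of each receptor gene, with distance from the start site in kb on the x axis (downstream positive) and 1 track per list, and the gene body in black; triangles mark the middle of Foxa2 sites. Nr1h4 and Thrb show Foxa2 sites in the Zmpste24 KO track alone, 4 and 3 respectively, and the young H3K9me3 regions of Nr1h4 lie on both sides of the gene.

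Nr1h3 and Nr1h2, which encode the oxysterol receptors LXRα and LXRβ, differed in young lamin B1, old H3K9me3 and WT Foxa2. Nr1h3 (chr2:91184061-91202834, minus strand, 18.8 kb) lay in a young lamin B1 domain of 1070 kb with 24 start sites (chr2:91070001-92140000) and an old domain of 520 kb with 14 (chr2:91010001-91530000). No H3K9me3 region was called in its window at either age, the nearest young region being 1074 kb and the nearest old one 157 kb away. A single WT Foxa2 site (chr2:91152712-91153897) lay 49.5 kb downstream of its start, in an intron of Madd, and the nearest mutant site was 434 kb away. The site was 30.2 kb from the end of the Nr1h3 body.

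Nr1h2 (chr7:44549616-44553951, minus strand, 4.34 kb) lay outside lamin B1 in young livers, where the nearest domain was 56.0 kb away. In old livers it lay in a lamin B1 domain of 2970 kb with 134 start sites (chr7:44200001-47170000). An H3K9me3 region of 350 kb (chr7:44420001-44770000) also covered 100% of its window and all 16 of its transcript starts in old livers, whereas the nearest young region was 820 kb away. It was the receptor with full coverage by lamin B1 and by H3K9me3 in old livers and neither in young livers. No Foxa2 site was called in the window, and the nearest was 2166 kb away in both genotypes. Of all genes, 5.07% shared this pattern of presence and absence over the 6 lists.

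Nr1i2 (chr16:38248323-38294824, minus strand, 46.5 kb) encodes PXR, a sensor of drugs and bile acids. It lay in a young lamin B1 domain of 1310 kb with 20 start sites (chr16:37390001-38700000). The old domain of 820 kb with 16 start sites (chr16:38240001-39060000) still held the whole gene but ended 8.32 kb beyond its 3′ end, less than 1 calling window of 10 kb, so that old coverage of the window was 71.6%. An old H3K9me3 region of 120 kb (chr16:38260001-38380000) held the start site and 74.9% of the gene body. The nearest young H3K9me3 region lay 238 kb away.

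Foxa2 was called in the first part of the Nr1i2 gene in both genotypes, at chr16:38287365-38288453 in WT and chr16:38287349-38287899 in the mutant, with the middles 6.92 and 7.20 kb downstream of the start in an intron. The mutant list held 2 further sites, 29.9 kb downstream in an intron (chr16:38264316-38265443) and 59.5 kb downstream in an intron of Gsk3b (chr16:38234564-38236143). The Gsk3b site was the one mutant site of this window outside the old lamin B1 domain. A stretch shared by both genotypes and a neighbouring stretch of the WT site are shown because the first holds forkhead words and the second 4 nuclear receptor words. The mutant site ends within the second stretch.
Nr1i2 stretch shared by both genotypes (chr16:38287392-38287691): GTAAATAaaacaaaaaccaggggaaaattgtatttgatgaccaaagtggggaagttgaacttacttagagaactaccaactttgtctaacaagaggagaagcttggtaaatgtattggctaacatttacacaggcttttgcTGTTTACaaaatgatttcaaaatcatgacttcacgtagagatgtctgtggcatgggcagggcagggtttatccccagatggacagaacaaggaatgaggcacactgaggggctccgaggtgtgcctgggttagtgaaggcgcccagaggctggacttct
Nr1i2 stretch of the WT site (chr16:38287803-38288070): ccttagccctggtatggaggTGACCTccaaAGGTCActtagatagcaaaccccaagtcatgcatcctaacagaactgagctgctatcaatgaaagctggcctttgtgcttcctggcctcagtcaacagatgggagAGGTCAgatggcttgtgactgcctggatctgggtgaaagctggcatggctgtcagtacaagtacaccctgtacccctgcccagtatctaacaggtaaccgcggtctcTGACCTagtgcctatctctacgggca
TGTTTAC lay 7288 bp downstream of the start site, and TATTTAC was found once more in the shared stretch. In the second stretch AGGTCA occurred 4 times, of which the first pair faced apart on opposite strands with 4 bases between them. This pair lay in both the WT and the mutant site, and the other pair in the WT site only. Of all WT sites, 49.1% held AGGTCA at least once.

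Nr1i3 (chr1:171213970-171220701, plus strand, 6.73 kb) encodes CAR, which induces drug-metabolizing enzymes. It lay in lamin B1 domains of 840 kb with 32 start sites in young livers (chr1:170640001-171480000) and of 1390 kb with 41 in old livers (chr1:170270001-171660000), and no H3K9me3 region touched its window. One WT site (chr1:171168588-171169354) lay 45 kb upstream. The other WT site (chr1:171224847-171225168) and the mutant site of the window (chr1:171224795-171225655) overlapped at the start of Apoa2, the gene of an apolipoprotein of high-density lipoprotein, 11.0 kb downstream of the Nr1i3 start. The nearest start site to both was that of Apoa2, at 0.047 and 0.171 kb. The shared stretch before the first exon of Apoa2 is shown because it is the site called in both genotypes nearest to a start site in any of the 9 windows.
Nr1i3 window, stretch shared by both genotypes (chr1:171224847-171225053): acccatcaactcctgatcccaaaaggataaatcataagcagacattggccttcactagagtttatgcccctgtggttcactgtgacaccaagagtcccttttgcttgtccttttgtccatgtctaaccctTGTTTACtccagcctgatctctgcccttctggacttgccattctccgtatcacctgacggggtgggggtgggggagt
It held TGTTTAC once.

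Ahr (chr12:35497974-35535038, minus strand, 37.1 kb), the receptor of dioxins and other aromatic compounds, was the receptor gene covered by H3K9me3 in young livers. A region of 340 kb (chr12:35250001-35590000) covered 100% of the window and all 3 transcript starts, and the Ahr start was the 1 protein-coding start site in it. In old livers no region was called in the window, the nearest being 395 kb away. Start sites in a young H3K9me3 region and outside every old one made up 5.87% of all genes, and the opposite arrangement, found for Nr1h2 and Nr1i2, made up 17.3%. The nearest lamin B1 domain was 385 kb away in the young list and 455 kb away in the old one. No Foxa2 site was called in the window, with the nearest at 95.6 kb in WT and 183 kb in the mutant.

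Thrb (chr14:17660261-18038090, plus strand, 378 kb), the thyroid hormone receptor β gene, was the longest of the 9. Neither lamin B1 nor H3K9me3 regions touched its window, and the nearest young lamin B1 domain was 222 kb and the nearest old one 202 kb away. The WT list held no Foxa2 site in the window, the nearest being 115 kb from the gene. The mutant list held 3, all in introns and far into the gene, at 226 kb (chr14:17885544-17886219), 344 kb (chr14:18003846-18004785) and 372 kb (chr14:18031844-18033111) from the start. None of the 3 held TGTTTAC. The first is shown as an example of a mutant site with the GATA word and without a forkhead word in the stretch.
Thrb mutant intronic site (chr14:17885732-17886031): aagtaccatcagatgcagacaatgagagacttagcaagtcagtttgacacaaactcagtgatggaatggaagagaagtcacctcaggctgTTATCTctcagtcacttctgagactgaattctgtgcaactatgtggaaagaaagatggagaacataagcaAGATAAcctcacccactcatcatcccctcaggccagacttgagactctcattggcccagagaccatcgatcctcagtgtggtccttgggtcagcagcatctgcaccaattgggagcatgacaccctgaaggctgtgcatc
The GATA word occurred 2 times in the stretch.

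Over all sites near the receptors, TGTTTAC was found anywhere in 4 of 7 WT sites (57.1%, against 27.7% of all WT sites) and in 4 of 15 mutant sites (26.7%, against 23.4% of all mutant sites). In the middle 300 bases it was found in 2 WT sites (28.6%, against 14.0%) and in 2 mutant sites (13.3%, against 11.1%). AGGTCA was found anywhere in 3 WT sites (42.9%, against 49.1%) and 6 mutant sites (40%, against 43.8%). The GATA word was found anywhere in 1 WT site (14.3%, against 41.7%) and 7 mutant sites (46.7%, against 46.4%). The Ah response core TNGCGTG, read by Ahr with Arnt, was found in 1 WT site (14.3%, against 9.34%) and in 0 mutant sites (6.7% of all mutant sites). The sites are few, and none of these shares was tested.

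**Figure D4:**
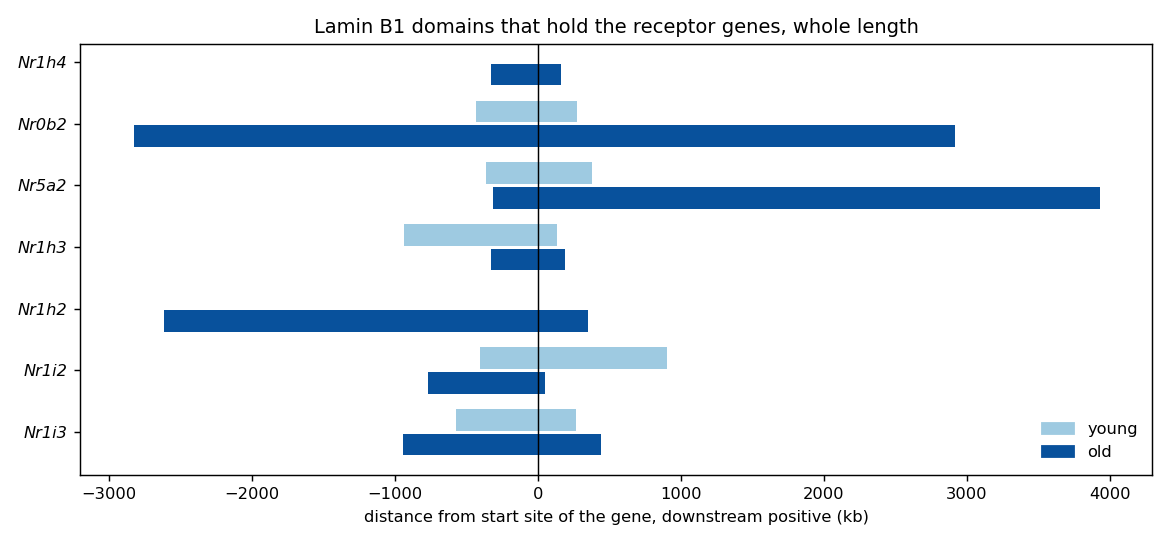
Whole lamin B1 domains that hold each receptor gene in young and old livers, drawn from the start site of the gene (0 on the x axis, in kb, downstream positive). The old domains of Nr0b2 and Nr5a2 are 5740 and 4240 kb long against 710 and 740 kb in young livers, those of Nr1h3 and Nr1i2 are shorter in old livers, and Nr1h4 and Nr1h2 have an old domain alone. The median over all domains is 200 kb in the young and 340 kb in the old list.

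The domains that held the receptor genes thus differed in length in both directions. They were longer in old than in young livers for Nr0b2, Nr5a2 and Nr1i3, and shorter in old livers for Nr1h3, at 1070 kb (young) and 520 kb (old), and Nr1i2, at 1310 kb (young) and 820 kb (old).

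Partner and target genes of the receptors were taken from 7 lists with 103 genes in all, which leave out the 9 receptors. Start sites lay in lamin B1 domains for 42 of these genes in young livers (40.8%, against 36.0% of all genes) and 67 in old livers (65.0%, against 62.3%). Of these, 29 lay in an old domain only (28.2%, against 30.5%) and 4 in a young domain only (3.88%, against 4.26%). Foxa2 sites were called in the windows of 67 of the genes in WT livers (65.0%, against 30.5%) and of 69 in mutant livers (67%, against 38.5%). Neighbouring genes of a list share sites and domains, as do Cyp1a1 and Cyp1a2, so the genes are not independent.

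**Figure D5:**
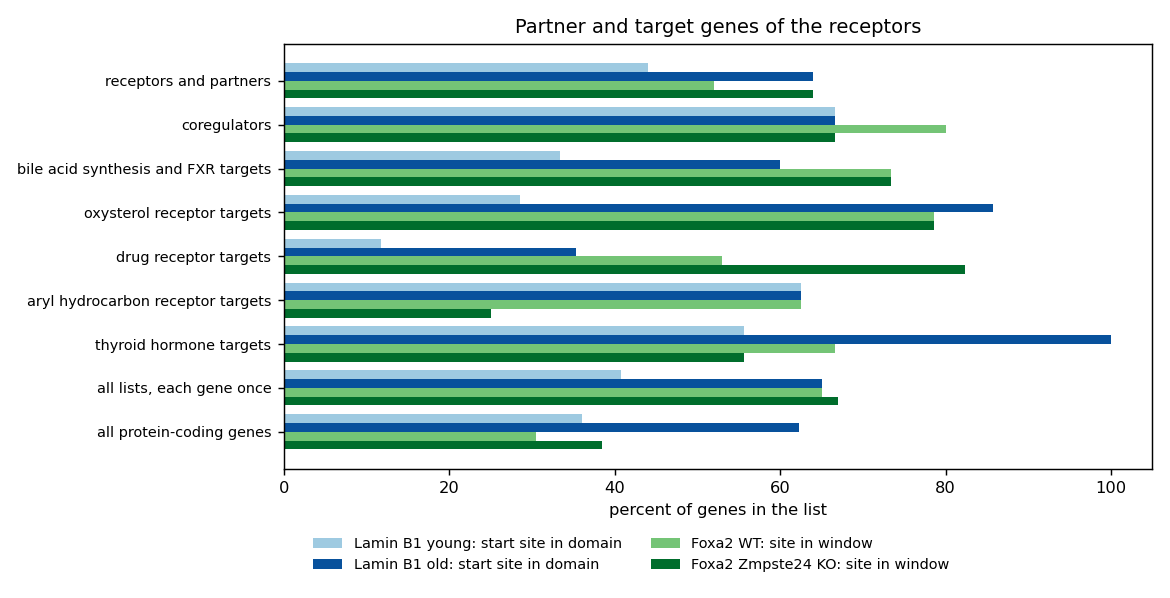
Percent of the genes of each partner or target list (x axis) whose start site lies in a lamin B1 domain in young or old livers, or whose gene body plus 50 kb holds a Foxa2 site in WT or Zmpste24 KO livers, with all protein-coding genes in the last row. Start sites of oxysterol receptor targets lie in young lamin B1 domains for 28.6% and in old ones for 85.7%, and aryl hydrocarbon receptor targets have equal shares at both ages.

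Among 14 oxysterol receptor targets, 4 had their start site in a young lamin B1 domain (28.6%, against 36.0% of all genes) and 12 in an old one (85.7%, against 62.3%). Of these, 8 lay in old domains only (57.1%, against 30.5%) and 0 of the 14 in young domains only (4.26% of all genes). Abcg1, which exports cholesterol, was covered over 4.98% of its window in young and 100% in old livers and held 1 mutant and no WT Foxa2 site. Fasn, the fatty acid synthase, was covered over 0% and 100% and held 1 WT and no mutant site. Apoe, an apolipoprotein of remnant particles, was covered over 51.5% and 100%, and Lpcat3, which remodels phospholipids, over 52.6% and 73.8%. Of the 9 thyroid hormone targets, 5 had their start site in a young domain (55.6%, against 36.0%) and 9 in an old one (100%, against 62.3%). Start sites in an old domain only made up 4 of these 9 (44.4%, against 30.5%). Dio1, the deiodinase that activates thyroid hormone, and Pck1, a gluconeogenic enzyme, were covered over 0% in young and 100% in old livers, and Hr, a corepressor, over 58.8% and 100%.

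Of 15 bile acid synthesis genes and FXR targets, 5 had their start site in a young domain (33.3%, against 36.0% of all genes) and 9 in an old one (60%, against 62.3%), both near the share of all genes. Start sites in an old domain only made up 4 of the 15 (26.7%, against 30.5% of all genes), also near that share. Cyp8b1 and Cyp27a1, enzymes of bile acid synthesis, and Slc10a1, the sodium-dependent bile acid importer, were each covered over 0% in young and 100% in old livers. Cyp8b1 and Cyp27a1 each held 1 WT and 2 mutant Foxa2 sites, and Slc10a1 held 3 WT and 1 mutant site. Of 17 drug receptor targets, 2 had their start site in a young domain (11.8%, against 36.0%) and 6 in an old one (35.3%, against 62.3%), shares below those of all genes. Foxa2 sites were called near 9 of them in WT (52.9%, against 30.5%) and 14 in mutant livers (82.4%, against 38.5%). Start sites of 4 of the 17 lay in an old domain only (23.5%, against 30.5% of all genes). Abcc2, an exporter of conjugates, Alas1, the first enzyme of heme synthesis, and Gstm1, a glutathione transferase, were covered over 0% in young and 100% in old livers, and Ugt1a1, which conjugates bilirubin, over 0% and 64.5% with 3 WT and 9 mutant sites.

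The 8 Ahr targets had 5 start sites in lamin B1 domains at each age (62.5%, against 36.0% of all genes in young and 62.3% in old livers), with 0 in an old domain only (30.5% of all genes) and 0 in a young domain only (4.26%). Foxa2 sites lay near 5 of them in WT (62.5%, against 30.5%) and 2 in mutant livers (25%, against 38.5%). Of the 15 coregulators, 10 had their start site in a domain at each age (66.7%, against 36.0% in young and 62.3% in old livers). Start sites of 2 lay in an old domain only (13.3%, against 30.5%) and of 2 in a young domain only (13.3%, against 4.26%). Ncor1, a corepressor, and Crebbp, a histone acetyltransferase, lay in young domains only, with 100% and 79.1% of the window covered in young and 46.3% and 35.5% in old livers. The coactivator Ncoa2 lay in an old domain only, with 0% of the window covered in young and 100% in old livers. Of the 25 partner receptors, 11 had their start site in a young domain (44%, against 36.0%) and 16 in an old one (64%, against 62.3%). Start sites of 7 lay in an old domain only (28%, against 30.5%) and of 2 in a young domain only (8%, against 4.26%). Ppara, the fatty acid receptor, Nr2f2 and Nr2f6 lay in old domains only, at 0% and 100%, and Nr2f1 lay in a young domain only, at 73.1% and 0%.

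Each receptor was then set against the 103 partner and target genes, and no other gene was ranked. By presence and absence over the 6 lists and the smallest mean difference in percent covered over the 4 broad lists, the listed gene most like Nr0b2 was Hnf4a, a receptor that activates hepatocyte genes, at 1.58 points. The listed gene most like Nr1h2 was Rxrb, a retinoid X receptor, at 0 points, as Rxrb was also covered over 100% by old lamin B1 and old H3K9me3 and over 0% by the young lists. The nearest to Nr1h4 was Nr2f2 at 11.7 points, and the nearest to Nr1i2 was Bcl3 at 12.5 points. Nr1h3 matched Cyp1a1, Cyp1a2 and Hdac3 at 0 points. Nr1i3 matched Cpt1a, Klb, Mlxipl, Nr1d1, Smarca4 and Thra, and Thrb matched Abca1, Abcb1a, Cyp3a13, Ppargc1a, Slco1a4 and Slco1b2, all at 0 points. No gene of the lists shared the pattern of Nr5a2 or of Ahr. Over all protein-coding genes, 138 (0.629%) had the pattern of Nr5a2 and 216 (0.985%) that of Nr1h4. The other patterns were more frequent, with 649 genes (2.96%) for Ahr, 615 (2.80%) for Thrb and 582 (2.65%) for Nr1h3. Nr0b2 and Nr1i2 had the pattern of 584 genes (2.66%), Nr1i3 that of 1031 (4.70%) and Nr1h2 that of 1112 (5.07%). The receptors matched at 0 points were covered over either 0% or 100% in each broad list.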

How the data were processed

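ChIP-Seq reads were aligned to mm10 with BWA and duplicates removed by the authors, who merged the replicates of each group and called lamin B1 domains with Epic in windows of 10 kb and called Foxa2 sites with PeakSeq, using input DNA as the control. The submitters' processing notes name BWA and SICER without a role, and the caller of the H3K9me3 regions is not given in the sources used here. The mutant Foxa2 reads were reduced to the WT number before calling, and the study's read summary lists more H3K9me3 reads for old and more lamin B1 reads for young livers. The deposited files hold chromosome, start and end only, 1 list per antibody and group, so they give no depth per region and no interval or test was computed. Only the names of the H3K9me3 files give their age.

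Positions were made 1-based. GENCODE M21 protein-coding genes on the nuclear chromosomes were extended by 50 kb, and an overlap of 1 bp or more counted. A Foxa2 site was placed in a domain by its middle. Words were searched on both strands of the RefSeq GRCm38.p6 sequence, in the whole site and its middle 300 bases, and the stretches printed lie outside every annotated exon. Python 3.11.15 with numpy 2.4.6 was used, and the overlap and word counts were tested on simulated data. The receptors and the partner and target lists were chosen with earlier results of these data known. Genes named from those lists are the first 4 in alphabetical order of each list with a start site in a lamin B1 domain at one age only and a Foxa2 site in the window, and the gene most like each receptor. One gene that this rule names is not reported here. Alternatives were the gene body alone, 10 or 100 kb on both sides, longer broad regions, at least 50% of the window covered, and wider Foxa2 sites.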

Additional observations from a re-analysis of the deposited data

How the results depend on the processing

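No paired analysis was possible because the replicates were merged into 1 list per group before deposit, and for the same reason no replicate could be left out. With the gene bodies alone, lamin B1 covered 27.9% (young) and 40.0% (old) of the receptor length, against 43.5% and 58.7% with 50 kb on both sides, and with 10 kb it covered 33.6% and 47.6%. H3K9me3 covered 5.36% (young) and 5.66% (old) of the bodies and 8.47% and 7.93% with 10 kb, against 17.2% and 13.9%, so that the order of the ages for the bodies was opposite to that for the windows. H3K9me3 touched 1 body in young and 2 in old livers, 2 windows with 10 kb in old livers, and at least 50% of the window of 1 receptor in young and 2 in old livers. WT Foxa2 sites were found in 2 gene bodies (3 sites), and sites wider than the median of their list numbered 3 in WT, in 3 receptors, and 8 in the mutant. For the partner and target genes, the bodies alone held Foxa2 sites in 36 (WT) and 41 (mutant) genes and touched H3K9me3 in 10 (young) and 20 (old), against 20 and 37 with 50 kb. The forkhead core was found in 4 WT and 4 mutant sites over the whole site and in 2 and 2 in the middle 300 bases. The other 48 summary values under the alternatives stayed within 1.5 times the reported value. The lists give no depth per region, so a region that was not called cannot be told from one that was too shallow to call, and the H3K9me3 lists hold fewer regions than the study counts.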

Other observations

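With 100 kb on both sides in place of 50 kb, further Foxa2 sites appeared beside the receptor genes. Nr1h4 then held 1 WT and 5 mutant sites, Nr1i3 held 3 WT and 1 mutant site, Nr0b2 held 1 WT and 2 mutant sites, and Ahr held 1 WT site, at chr12:35400969-35402327 inside the young H3K9me3 region. Nr1h2 still held none in either genotype. H3K9me3 covered 67.8% (young) and 20% (old) of the wider Nr1h4 interval and 83.1% (young) and 0% (old) of the wider Ahr interval.

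The receptor genes differed in their company. The windows of Nr5a2, Ahr and Thrb held no other protein-coding gene. The Nr1i3 window held 7 others, among them Apoa2 and Tomm40l. The Nr0b2 window held 6 others, including Kdf1, Nudc, Gpatch3 and Sfn, and the Nr1h2 window 6, including Pold1, a DNA polymerase subunit, and Spib, a lymphoid transcription factor. The Nr1h3 window held 4, Mybpc3, Madd, Acp2 and Ddb2.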
